A study of Mus musculus with 2 samples.

Results

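The 10 genes described here, Car9, Adm, Egln3, Bnip3, Vegfa, Fam162a, Ndrg1, Ndufa4l2, Cox4i2 and Pdk1, are genes whose messenger RNA is known to rise when mammalian cells run short of oxygen. They were taken by gene symbol, and each symbol matched 1 row of a single-cell count matrix of 28692 genes. No measured value entered that rule, but the genes were chosen with earlier results of these data known. The cells were mouse neural stem cells of the C57/Bl6J strain, grown from the subventricular zone, the neurogenic layer along the lateral ventricles of the brain. Postnatal cells were expanded and split into a library treated with 1 µM of the oxysterol 20HC and a library treated with the solvent DMSO, and both were taken 3 days after the growth factors EGF and FGF were withdrawn. The split into DMSO and 20HC is that of the series' design text and the sample titles; the treatment field names 20HC for both libraries. The oxygen level of the cultures, the number of animals and any pooling of animals are not given in the sources used here.

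Both libraries lie in 1 pooled matrix of 14685 cell barcodes and 41462326 unique molecular identifiers (UMIs, each standing for 1 captured transcript end). A barcode ends in 1 (10787 barcodes) or in 2 (3898 barcodes), and nothing in the labels ties either number to a library. The genes could therefore not be compared between 20HC and DMSO, the matrix counted as 1 sample, and no p-value was computed. Barcode set 1 and barcode set 2 are reported next to each other without a condition, and 48 barcode sequences occurred in both sets. After filtering, 13028 cells were kept (9630 and 3398), with a median of 2842 UMIs per cell. Although the labels call the cultures neural stem cells, 53.9% of the kept cells (7028) carried an astrocyte-like profile and 6.32% (824) a progenitor-like profile by their marker genes.

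When oxygen is plentiful, prolyl hydroxylases of the EGLN family mark the alpha subunits of hypoxia-inducible factor (HIF) for destruction through the VHL protein. When oxygen falls, the alpha subunits persist, pair with ARNT and bind short DNA sites with the core ACGTG or GCGTG near genes for glycolysis, pH control, blood vessel growth and mitochondrial adjustment. In the brain, this response is known from low blood flow, from the hypoxic niches of neural stem cells and from dense cultures. Of the 10 genes, Adm and Vegfa encode secreted signals to blood vessels, Car9 encodes a cell-surface carbonic anhydrase that handles acid, and Egln3 encodes an oxygen-sensing prolyl hydroxylase that acts back on HIF. Bnip3 and Fam162a encode mitochondrial proteins tied to mitophagy and cell death, Ndufa4l2 and Cox4i2 are oxygen-regulated relatives of respiratory chain proteins, Pdk1 encodes a kinase that keeps pyruvate out of the mitochondria, and Ndrg1 encodes a stress-responsive protein linked to growth arrest and differentiation.

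The promoters of 7 of the 10 genes were found in the RefSeq promoter table of GRCm38.p6 (9 start sites, 2 each for Vegfa and Pdk1). Ndrg1, Ndufa4l2 and Cox4i2 were not matched. The 250 bases before the start site are shown for 5 genes, 5′ to 3′ on the gene's own strand, because they carry the HIF core in different numbers and places; capitals mark each ACGTG or GCGTG, which reads CACGT or CACGC where the match is on the opposite strand. The windows are chr4:43506776-43507025 (plus strand) for Car9, chr7:110627407-110627656 (plus) for Adm, chr12:54203875-54204124 (minus) for Egln3, chr7:138909507-138909756 (minus) for Bnip3 and chr16:36071562-36071811 (minus) for Fam162a.
Car9: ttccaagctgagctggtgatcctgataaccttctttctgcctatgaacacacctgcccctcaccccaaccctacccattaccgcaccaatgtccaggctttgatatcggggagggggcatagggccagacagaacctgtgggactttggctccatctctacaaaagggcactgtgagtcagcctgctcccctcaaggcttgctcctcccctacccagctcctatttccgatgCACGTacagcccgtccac
Adm: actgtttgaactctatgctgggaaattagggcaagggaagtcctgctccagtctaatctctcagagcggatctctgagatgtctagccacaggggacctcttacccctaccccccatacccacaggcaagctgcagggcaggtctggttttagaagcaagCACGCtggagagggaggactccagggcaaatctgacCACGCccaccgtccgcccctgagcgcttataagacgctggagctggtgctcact
Egln3: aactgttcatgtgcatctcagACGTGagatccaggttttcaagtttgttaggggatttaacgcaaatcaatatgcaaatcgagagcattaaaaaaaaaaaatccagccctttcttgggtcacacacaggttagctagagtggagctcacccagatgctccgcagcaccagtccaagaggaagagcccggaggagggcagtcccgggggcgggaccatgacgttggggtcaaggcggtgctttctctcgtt
Bnip3: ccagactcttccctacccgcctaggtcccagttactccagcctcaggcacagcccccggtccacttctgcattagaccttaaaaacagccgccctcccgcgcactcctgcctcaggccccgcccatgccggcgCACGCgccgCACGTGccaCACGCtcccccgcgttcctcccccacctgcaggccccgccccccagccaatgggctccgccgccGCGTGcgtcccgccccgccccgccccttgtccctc
Fam162a: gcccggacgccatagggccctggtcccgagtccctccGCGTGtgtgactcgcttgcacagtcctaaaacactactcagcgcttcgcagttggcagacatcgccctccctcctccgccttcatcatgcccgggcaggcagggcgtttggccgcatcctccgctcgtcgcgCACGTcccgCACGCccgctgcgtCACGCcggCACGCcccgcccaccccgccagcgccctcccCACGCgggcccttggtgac
Car9 held 1 core, 18 bases before the start site, and Egln3 held 1 core, 229 bases before it. Adm held 2, both GCGTG on the opposite strand. Bnip3 held 5, of which an overlapping pair, 108 and 107 bases before the start site, forms the palindrome CACGTG. Fam162a held 6, of which 1 was ACGTG. Over the whole 300-base window of the table (250 bases before to 50 after the start site), 7 of the 9 promoters held ACGTG or GCGTG on either strand (77.8%), against 43.8% of all 32851 promoters in the table. For Vegfa, the start site at the gene's 5′ end held 0 cores and the one inside the gene held 2. For Pdk1, the start site at the 5′ end held 2 and the other held 0. At least 2 cores were found in 5 of the 9 (55.6%) against 20.6% of all promoters, and ACGTG alone in 5 of the 9 (55.6%) against 19.6%. The 9 promoters were rich in G and C (median 59.3% against 52.7% for all). The share was therefore also taken over the 27336 other promoters within their range of G and C content, where it was 45.6%. That range was wide and the median of these promoters was 53.3%, so G and C content was not matched to that of the 9. A match of 5 letters describes the sequence and is not evidence of binding.

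All 10 genes were detected, and together they made up 19726 of 38337071 UMIs in the kept cells, or 514.5 CPM (UMIs per 1e+06 UMIs; 95% Poisson interval 507 to 522). The intervals here and below cover counting error only. UMIs were read at the 3′ end of transcripts and were not divided by length. Most of the sum came from Fam162a (ENSMUSG00000003955, chr16:36043761-36071594, GRCm38), at 306 CPM and with a UMI in 49.4% of cells. Bnip3 (chr7:138890836-138909519) reached 57.8 CPM and 14.4% of cells, and Egln3 (chr12:54178981-54203860) 35.9 CPM and 8.83% of cells. The other 7 genes were sparse, each found in 1.63 to 5.25% of cells. Among these, Adm (chr7:110627661-110629820) stood at 24.9 CPM, Pdk1 (chr2:71873224-71903858) at 19.1, Cox4i2 (chr2:152754173-152765037) at 18.7, Ndufa4l2 (chr10:127514967-127517154) at 16.4, Ndrg1 (chr15:66929318-66969640) at 15.5, Car9 (chr4:43506966-43513729) at 14.8 and Vegfa (chr17:46016993-46032369) at 5.999 CPM. The intervals of Pdk1 (17.7 to 20.5) and Cox4i2 (17.3 to 20.1) overlapped, as did those of Ndufa4l2, Ndrg1 and Car9.

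The 10 genes summed to 536 CPM in barcode set 1 and 455 CPM in set 2. Car9 stood at 16.2 CPM in set 1 and 10.997 in set 2, Ndufa4l2 at 18.1 and 11.7, Cox4i2 at 20.4 and 13.9, and Fam162a at 319 and 268. Adm was at 24.6 CPM in set 1 and 25.5 in set 2, Vegfa at 6.04 and 5.89, and Pdk1 at 18.6 and 20.4. These differences carry no condition and no replicate.

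Whether the genes were found in the same cells was asked next. Each cell was thinned at random to 1500 UMIs, which left 11758 cells and removed 1270 shallower cells, and each gene was measured in cells that held a UMI of at least 2 of the other 9 genes and in cells that held none of them. The gene measured took no part in choosing the cells. All 10 genes were higher in the cells that held the others, by 2.36-fold for Pdk1 to 12.6-fold for Car9, with a median of 5.57-fold. A gene was called higher when its pooled CPM was at least 1.5 times as high and it was higher in each barcode set. The comparison cells' CPM also had to lie outside its Poisson interval. In cells with UMIs of at least 2 of the 10 genes against cells with none, 5.17% of 12867 other genes met this rule. The median log2 ratio of the 12867 genes was 0.03, against 2.08 for the 10. None of the 10 was lower, where 4.78% of the other genes were.

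Car9 had 73.0 CPM (interval 60.7 to 87.1; 123 UMIs) in the 1123 cells that held at least 2 others and 5.79 CPM (4.39 to 7.50; 57 UMIs) in the 6563 cells that held none. The barcode sets gave 74.4 against 6.23 CPM in set 1 and 68.4 against 4.67 CPM in set 2. In cells that held exactly 1 other gene, Car9 was at 8.35 CPM, within 1.5 times of its level in cells with none. Cox4i2, the alternative subunit of cytochrome c oxidase, had 88.3 CPM (74.3 to 104) in cells with at least 2 others and 8.40 CPM (6.69 to 10.4) in cells with none, with 17.7 CPM at 1 other gene. Barcode set 1 gave a ratio of 9.56 and set 2 gave 15.2.

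The secreted signals followed the same order. Adm had 83.3 CPM (69.7 to 98.8) in cells that held at least 2 others and 15.3 CPM (12.9 to 17.9) in cells with none. Vegfa had 23.4 CPM (16.7 to 31.8; 40 UMIs) in cells that held at least 2 others and 3.67 CPM (2.57 to 5.08; 36 UMIs) in cells with none. Both differences were present in each barcode set, by 5.29-fold and 5.91-fold for Adm and by 5.99-fold and 7.64-fold for Vegfa. Egln3, the prolyl hydroxylase, stood at 106 CPM (90.03 to 124) in cells with at least 2 others and at 26.6 CPM (23.5 to 29.96) in cells with none.

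Of the genes for mitochondrial proteins, Fam162a had 1309 CPM (1226 to 1396) in cells that held at least 2 others and 243 CPM (235 to 252) in cells with none, with ratios of 5.24 in barcode set 1 and 5.77 in set 2. Bnip3 had 173 CPM (151 to 197) in cells with at least 2 others and 47.5 CPM (43.5 to 51.9) in cells with none. Ndufa4l2 had 65.1 CPM (53.3 to 78.6) in cells with at least 2 others against 10.9 CPM (8.93 to 13.1) in cells with none. Outside that group, Ndrg1 was at 56.9 CPM (45.9 to 69.7) in cells with at least 2 others and at 9.99 CPM (8.12 to 12.2) in cells with none. Pdk1 was the least tied to the rest, with 37.5 CPM (28.6 to 48.3) in cells that held at least 2 others and 15.9 CPM (13.5 to 18.6) in cells with none; the 2 intervals lay apart.

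**Figure D1:**
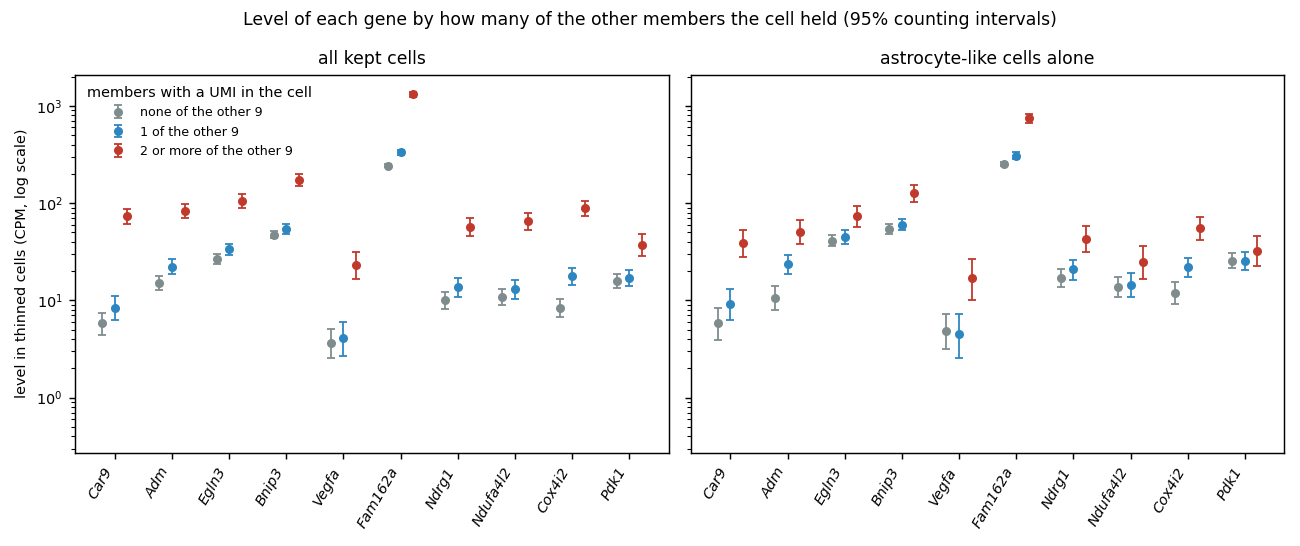
Level of each gene (CPM in thinned cells, log axis, 95% Poisson intervals) in cells holding UMIs of none, 1, or 2 or more of the other 9 genes, for all kept cells (left) and for astrocyte-like cells (right). In all kept cells the cells holding 2 or more others lie above those holding none for all 10 genes, from 37.5 against 15.9 CPM for Pdk1 to 1309 against 243 CPM for Fam162a. In astrocyte-like cells the intervals overlap for Pdk1 (32.5 against 25.6 CPM) and for Ndufa4l2 (25.0 against 13.7 CPM).

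The comparison was repeated within cell classes. Among astrocyte-like cells, 9 of the 10 were called higher in those that held at least 2 others than in those with none, where 2.07% of other genes were. Car9 stood at 38.9 CPM (28.2 to 52.4) in astrocyte-like cells with at least 2 others and 5.87 CPM (3.96 to 8.39) in those with none. Fam162a stood at 747 CPM (668 to 832) in astrocyte-like cells with at least 2 others and 251 CPM (240 to 263) in those with none. Pdk1, at 32.5 CPM (22.4 to 45.6) with at least 2 others and 25.6 CPM (21.5 to 30.4) with none, was not called. Ndufa4l2 was called, although its intervals overlapped. It was at 25.0 CPM (16.5 to 36.4; 27 UMIs) with at least 2 others and 13.7 CPM (10.7 to 17.3) with none. The ratios in astrocyte-like cells had a median of 2.76-fold; whether it differs from that over all cells was not tested.

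In progenitor-like cells, all 10 genes were called higher, where 9.33% of other genes were. Egln3 had 297 CPM (235 to 371; 78 UMIs) in the 175 progenitor-like cells that held at least 2 others and 13.7 CPM (5.52 to 28.3; 7 UMIs) in the 340 with none. Fam162a had 2991 CPM (2739 to 3261) in progenitor-like cells with at least 2 others, of which 94.8% held a UMI, and 251 CPM (215 to 290) in those with none, of which 30.3% did. Car9 had 63 UMIs, or 228 CPM (175 to 292), in progenitor-like cells with at least 2 others and 2 UMIs, or 3.97 CPM (0.481 to 14.3), in those with none. Vegfa, Ndrg1 and Pdk1 likewise had 2 or 3 UMIs in progenitor-like cells with none.

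In other classes, few cells held several of the genes. Of the genes with at least 10 thinned UMIs in the comparison, Ndufa4l2 was called higher in OPC-like cells and 3 genes were not called. Ndufa4l2 had 133 CPM (53.6 to 275, 7 UMIs in 3 cells) with at least 2 others, against 10.5 CPM (4.23 to 21.7) with none. In neuroblast-like cells Bnip3 (9 UMIs with at least 2 others) and Ndufa4l2 (8 UMIs) were called higher and 3 genes were not. In cycling-like cells Egln3 (3 UMIs with at least 2 others) was called higher and 2 genes were not. The share of all genes called in these splits was not computed, so these calls have no background. In fibroblast-like cells Adm and Fam162a were not compared, because fewer than 20 cells held at least 2 of the other genes, and of the 8 compared genes Bnip3 and Ndufa4l2 reached 10 UMIs. Neither was called. Bnip3 had 95.2 CPM (19.6 to 278; 3 UMIs) in fibroblast-like cells with at least 2 others and 53.6 CPM (24.5 to 102) in those with none, a ratio of 1.78. Ndufa4l2 had 152 CPM (49.2 to 354; 5 UMIs) in fibroblast-like cells with at least 2 others and 48.9 CPM (21.1 to 96.4) in those with none, a ratio of 3.10. The intervals overlapped for both.

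Pairs of genes differed in how closely they went together. Among 170 thinned cells with a Car9 UMI, 15.9% (interval 10.7 to 22.3%) held a Cox4i2 UMI, against 2.21% of the 11588 cells without Car9, a ratio of 7.19. Car9 with Vegfa gave the largest ratio, 7.75, resting on 10 cells that held both (5.88%, 2.86 to 10.6%, against 0.759%). Toward the other end, 3.19% of cells with Fam162a held Pdk1 (2.65 to 3.81%), against 2.42% of cells without it. Among cells with Ndufa4l2, 3.38% held Pdk1 (1.47 to 6.54%), against 2.65% of those without, a difference within the interval.

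**Figure D2:**
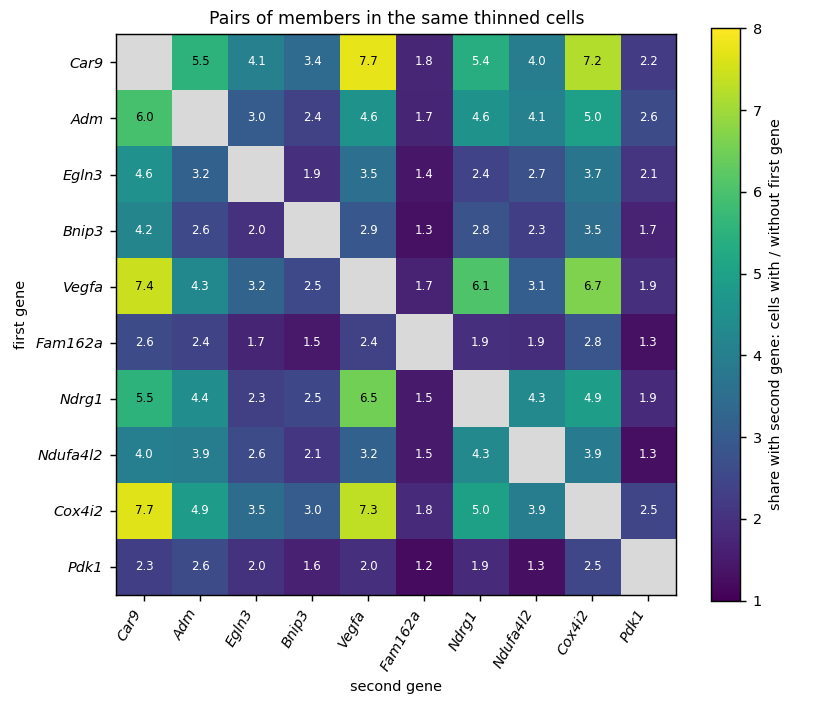
Ratio of the share of thinned cells with a UMI of the second gene (columns) between cells with and cells without a UMI of the first gene (rows). Pairs among Car9, Vegfa and Cox4i2 are brightest, up to 7.75 for Car9 with Vegfa, while the Pdk1 and Fam162a columns are darkest.

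The 10 genes also differed in how far their transcripts lay in the cells richest in the other 9. The 651 kept cells (5%) with the highest summed share of the other 9 genes held 4.22 to 4.30% of all UMIs, depending on the gene left out. They carried 48.9% of Car9 UMIs, 39.1% of Vegfa UMIs, 38.3% of Cox4i2 UMIs, 35.3% of Ndufa4l2 UMIs and 30.2% of Adm UMIs. The share was 22.3% for Ndrg1, 21.1% for Egln3, 18.7% for Bnip3, 18.5% for Fam162a and 13.4% for Pdk1. Among the 10 genes, Car9 thus lay most in the cells rich in the others and Pdk1 least.

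Counting members per thinned cell, 6511 of 11758 cells held none of the 10, 4081 held 1, 855 held 2, 193 held 3, 64 held 4 and 54 held 5 or more, up to 8. Cells with at least 3 numbered 311, or 2.65% (interval 2.36 to 2.95%), with 2.82% in barcode set 1 and 2.16% in set 2. The share depends on depth and stood at 1.54% with cells thinned to 1000 UMIs, 5.02% at 2500 UMIs and 7.06% with no thinning. Cells with at least 3 members were not deeper or richer in mitochondrial transcripts than cells with none. Their median was 2753 UMIs before thinning and 2.82% mitochondrial UMIs, against 2934 UMIs and 2.96% in cells with none.

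Of the 54 cells that held 5 or more members, 79.6% were progenitor-like and 18.5% astrocyte-like. The 311 cells with at least 3 members were 51.1% astrocyte-like and 35.7% progenitor-like, while cells with none were 51.9% astrocyte-like, 5.13% progenitor-like and 17.0% cycling-like. Cells with at least 3 members made up 15.1% (12.6 to 17.9%) of progenitor-like cells, 2.44% (2.08 to 2.84%) of astrocyte-like cells, 0.788% of neuroblast-like cells and 0.412% (0.166 to 0.847%) of cycling-like cells. They made up 6.06% (1.68 to 14.8%; 4 cells) of ependymal-like cells, 2.35% (0.766 to 5.39%; 5 cells) of fibroblast-like cells and 1.27% of OPC-like cells. These shares hold for the classes of one clustering: the progenitor-like and astrocyte-like classes, and the counts of the 10 genes higher in them, moved with the settings, as given with the levels by class. The 9 progenitor markers summed to 1441 CPM in progenitor-like cells with at least 3 members and 3098 CPM in progenitor-like cells with none, and to 1577 CPM in astrocyte-like cells with at least 3 members and 1954 CPM in astrocyte-like cells with none. Over all classes none of the 9 was called higher in cells with at least 3 members, Hes6 was called lower and Hes5 was at 0.

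**Figure D3:**
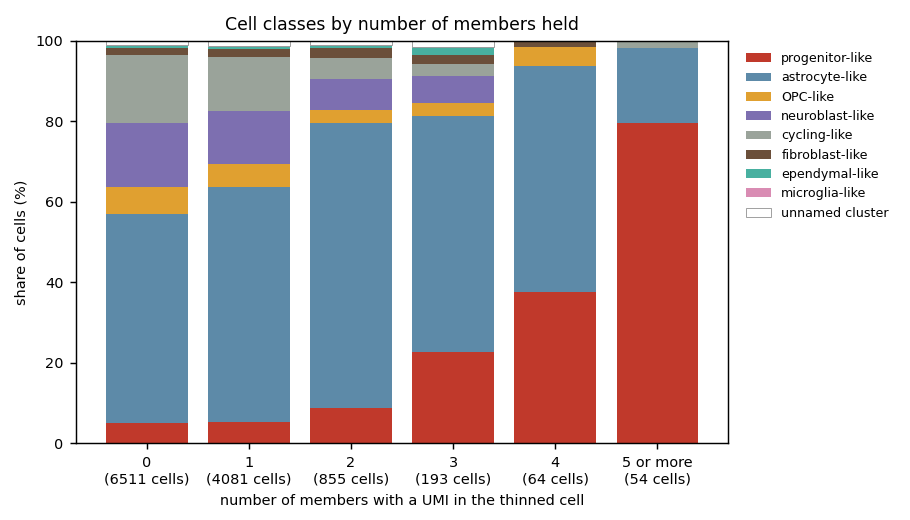
Share of cells (%) in each cell class, by the number of the 10 genes with a UMI in the thinned cell. The progenitor-like share stands at 5.13% in cells with none and at 79.6% in the 54 cells with 5 or more, and the cycling-like share at 17.0% and 1.85%, in a clustering whose progenitor-like class changed with its settings.

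Levels by cell class were compared next, with classes from a clustering that did not use the 10 genes or the lists of HIF pathway genes, other hypoxia targets and glycolysis genes. It did use Fn1, Bsg, Angptl2 and Sparc, 4 of the 12 genes whose levels went most closely with the 10, so the classes are not independent of the pattern. The progenitor-like cluster had 4 of its 9 listed markers raised, with Mfge8, Btg2 and Egfr among its leading genes. In progenitor-like cells, 9 of the 10 genes were higher than in the other kept cells, where 3.9% of all measured genes were. None was lower, where 13.9% were. Car9 was at 71.4 CPM (60.3 to 83.9) in progenitor-like cells and 11.6 CPM in the others, and Cox4i2 at 88.8 CPM (76.4 to 103) in progenitor-like cells and 14.7 CPM in the others. Adm was at 103 CPM (89.5 to 118) in progenitor-like cells and 20.4 CPM in the others. Egln3 was at 106 CPM (92.7 to 121) in progenitor-like cells and 31.9 CPM in the others. Both barcode sets showed these differences, Egln3 with 119 CPM in progenitor-like cells of set 1 and 66.2 CPM in those of set 2. Pdk1, at 27.2 CPM (20.5 to 35.3) in progenitor-like cells and 18.6 CPM in the others, was not called. This count varied with the clustering. It was 0 of 10 with doublets kept and 4 of 10 at a finer clustering resolution of 1. No cluster was named progenitor-like at resolution 0.3, in barcode set 2 alone or with the hypoxia lists left in the clustering. In set 2 alone and with the lists left in, a cluster had Mfge8, Btg2 and Olig1 among its leading genes. It scored as OPC-like but was left unnamed because its leading genes held more progenitor than OPC markers. With the lists left in, a cluster of 295 cells led by Car9, Cox4i2, Ndufa4l2 and Adm held 147 of the 311 cells with at least 3 members (47.3%); 62.7% of its cells were progenitor-like and 33.2% astrocyte-like in the clustering without them. Fam162a and the glycolysis gene Gpi1 were among the 10 leading genes of the progenitor-like cluster, although neither was used to form it.

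In astrocyte-like cells, Egln3, Ndrg1 and Pdk1 were higher than in the other cells and Adm was lower, where 36.9% of all measured genes were higher and 19.2% lower, so neither share stands out from the background. Pdk1 was at 26.6 CPM (24.4 to 28.8) in astrocyte-like cells and 9.52 CPM in the others, and Ndrg1 at 20.9 CPM (19.0 to 22.9) in astrocyte-like cells and 8.57 CPM in the others. The count of higher genes was 7 with doublets kept and 8 at resolution 0.3.

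Cycling-like and neuroblast-like cells stood at the low end. The neuroblast-like cluster had 11 of its 12 markers raised and was led by Tubb3. The DNA replication genes Mcm3 and Mcm6 were also among its leading genes, so it was not made up of young neurons alone. In cycling-like cells, all but Fam162a (9 of 10) were lower than in the other cells, where 42.5% of all measured genes were lower, and none was higher, where 13.6% were. Ndrg1 was at 2.08 CPM (1.08 to 3.64) in cycling-like cells and 17.8 CPM in the others. Adm was at 3.996 CPM (2.53 to 5.996) in cycling-like cells and 28.5 CPM in the others. Car9 was at 3.82 CPM (2.40 to 5.79) in cycling-like cells and 16.8 CPM in the others. Fam162a, at 245 CPM (233 to 258) in cycling-like cells and 316 CPM in the others, was not called. In neuroblast-like cells, 8 of 10 were lower (all but Bnip3 and Fam162a), where 36.2% of all measured genes were, and none was higher, where 13.6% were; Pdk1 was at 4.37 CPM (2.67 to 6.75) in these and 21.1 CPM in the others. In barcode set 2 alone the neuroblast-like count was 2 of 10 and the cycling-like count 8 of 10. OPC-like cells had 6 genes lower, where 18.4% of all measured genes were, with Cox4i2 at 3.38 CPM (1.46 to 6.67) in OPC-like cells and 19.7 CPM in the others. Adm was the exception in OPC-like cells, at 36.8 CPM (29.5 to 45.4) in them and 24.1 CPM in the others, where 6.8% of all measured genes were called higher; its log2 ratio changed sign to -0.025 with cells of at most 5% mitochondrial UMIs and to -0.57 with the hypoxia lists in the clustering.

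**Figure D4:**
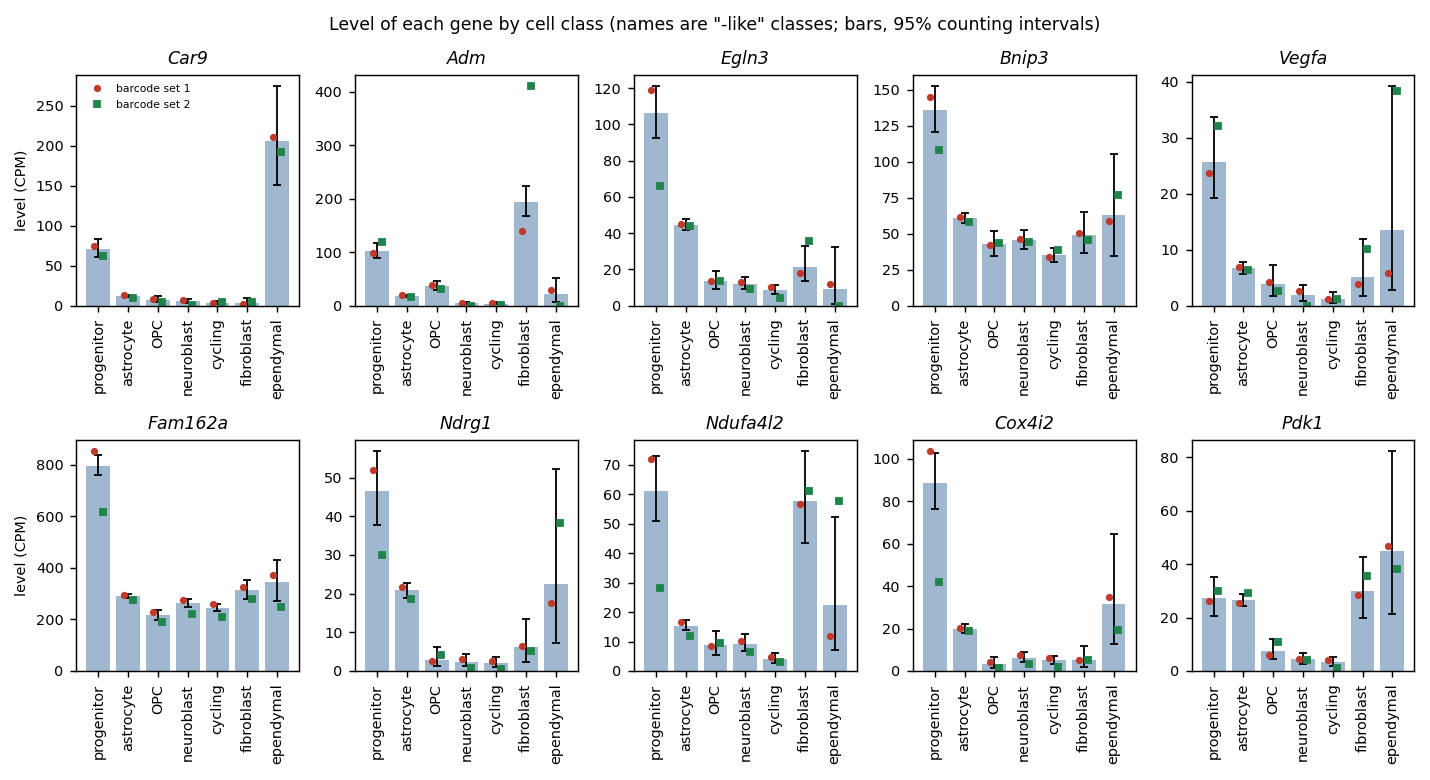
Level (CPM, linear axis from 0, 95% Poisson intervals) of each of the 10 genes in 7 named cell classes, with barcode set 1 (circles) and set 2 (squares). Car9 is highest in ependymal-like cells (206 CPM), Adm in fibroblast-like cells (194 CPM), and Fam162a in progenitor-like cells (797 CPM).

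Single genes stood high in small classes in which most of the others were not called higher. Car9 reached 206 CPM (151 to 275; 46 UMIs) in the 78 ependymal-like cells and 13.7 CPM in the other cells, with 211 CPM in barcode set 1 and 192 CPM in set 2. A Car9 UMI was found in 29.5% of ependymal-like cells and in 1.07% of cycling-like cells, where it was near its lowest; the median depths were 2795 and 3157 UMIs. Ependymal cells are the multiciliated cells that line the ventricles. Apart from Pdk1 (44.8 CPM, 21.5 to 82.4, in ependymal-like cells and 18.9 CPM in the others), no further gene of the 10 was called higher in them, where 11.6% of all measured genes were. Egln3, with 2 UMIs in ependymal-like cells, was called lower, where 5.8% of all measured genes were. At resolution 1 the ependymal-like class took in 771 cells, and the log2 ratio of Car9 was then 1.67 in place of 3.50.

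In the 221 fibroblast-like cells, Adm was at 194 CPM (167 to 224; 189 UMIs) and at 20.4 CPM in the other cells, with 139 CPM in barcode set 1 and 412 CPM in set 2. Ndufa4l2 was at 57.5 CPM (43.4 to 74.6) in fibroblast-like cells and 15.3 CPM in the others. Pdk1 was at 29.8 CPM (19.9 to 42.8) in fibroblast-like cells and 18.8 CPM in the others. These 3 were called higher, where 11.7% of all measured genes were. Car9 (3.08 CPM, 0.635 to 8.999, in fibroblast-like cells and 15.1 CPM in the others), Ndrg1 and Cox4i2 were called lower, where 19.1% were. The fibroblast-like cluster was led by the collagen genes Col1a1, Col3a1 and Col1a2 but also by Acta2 and Vtn, genes known from smooth muscle and pericytes. In the 34 microglia-like cells, Car9, Vegfa, Ndufa4l2 and Cox4i2 had 0 UMIs, which at 3 counts allows a share of up to 8.82% of cells with a UMI and sets no limit on cells that express the gene, and Fam162a was called lower (157 CPM, 105 to 226, in microglia-like cells and 306 CPM in the others), where 15.5% of all measured genes were. None was called higher in microglia-like cells, where 5.27% were.

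An unnamed cluster of 531 shallow cells (median 1087 UMIs), 490 of them in barcode set 1, had Lgals1 among its leading genes. Car9 was at 67.7 CPM (49.3 to 90.5) in this cluster and 13.9 CPM in the other cells. Cox4i2 was at 37.6 CPM (24.3 to 55.5) in this cluster and 18.3 CPM in the others, and Ndufa4l2 at 34.6 CPM (21.9 to 51.9) in this cluster and 16.1 CPM in the others. These 3 were called higher, where 2.45% of all measured genes were. Pdk1 and Vegfa were called lower in it, where 30.8% were.

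What else differed in the cells that held several of the genes was described with lists from the HIF pathway, its known targets and other stress responses. The 311 cells with at least 3 members were set against the 6511 with none; the 10 genes chose these cells and are not counted. Of 37 other known hypoxia targets measured, 26 were higher and none was lower, against 4.51% and 5.13% of 12673 genes tested, and their median log2 ratio was 1.08 against -0.02 for all genes. P4ha1, a collagen prolyl hydroxylase, was at 197 CPM (159 to 242) in cells with at least 3 members and 36.4 CPM in cells with none. Ankrd37, a small ankyrin repeat protein induced by HIF, was at 60.02 CPM (39.9 to 86.7; 28 UMIs) with at least 3 members and 3.69 CPM with none. Ero1l, which helps form disulfide bonds in the endoplasmic reticulum, was at 49.3 CPM (31.3 to 74.0) with at least 3 members and 3.48 CPM with none. The cytokine gene Mif was at 2463 CPM (2323 to 2610) in cells with at least 3 members and 885 CPM in cells with none. Angptl4, Cp and Hmox1, which were not called, were at 4.29, 2.14 and 23.6 CPM in cells with at least 3 members and at 9.42, 7.88 and 34.4 CPM in cells with none. Within astrocyte-like cells, 12 of 35 were called higher, where 2.39% of genes were; within progenitor-like cells, 21 of 26 were, where 7.54% of genes were. None was lower within either class, where 1.29% and 6.3% of genes were. In barcode set 2 alone the count over all cells was 17.

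The enzymes and transporters of glycolysis were higher too, 16 of 20 with none lower, against 4.51% and 5.13% of all genes, and a median log2 ratio of 1.66. Gapdh was at 3134 CPM (2975 to 3299) in cells with at least 3 members and 986 CPM in cells with none. Ldha, which makes lactate, was at 1556 CPM (1445 to 1674) with at least 3 members and 388 CPM with none. The lactate exporter gene Slc16a3 was at 77.2 CPM (54.1 to 107; 36 UMIs) with at least 3 members and 3.17 CPM with none. Hexokinases start glycolysis. Hexokinase 2 (Hk2) was at 51.5 CPM (33.0 to 76.5) with at least 3 members and 3.28 CPM with none, while hexokinase 1 (Hk1), which was not called, was at 94.3 CPM (68.5 to 127) with at least 3 members and 64.2 CPM with none. Aldoc and Slc16a1 were not called either, at 442 and 53.6 CPM in cells with at least 3 members and 483 and 62.2 CPM in cells with none. Within astrocyte-like cells the count was 14 of 20, where 2.39% of genes were higher, and within progenitor-like cells 16 of 20, where 7.54% were.

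Of the HIF pathway itself, 2 of 11 genes were called higher, where 4.51% of all genes were. Egln1, the main oxygen-sensing hydroxylase and itself a HIF target, was at 83.6 CPM (59.5 to 114) in cells with at least 3 members and 23.1 CPM in cells with none. Epas1, which encodes HIF-2 alpha, was at 34.3 CPM (19.6 to 55.7) with at least 3 members and 17.9 CPM with none. Neither was called within astrocyte-like cells, where Epas1 was at 33.5 CPM with at least 3 members and 30.4 CPM with none. Both were called within progenitor-like cells, where Egln1 was at 114 CPM with at least 3 members and 17.96 CPM with none, and Epas1 at 42.0 CPM with at least 3 members and 15.97 CPM with none. Hif1a, which encodes HIF-1 alpha, was not called, at 25.7 CPM (13.3 to 44.9; 12 UMIs) with at least 3 members and 31.6 CPM with none. Vhl was not called either, at 25.7 CPM (13.3 to 44.9) with at least 3 members and 30.9 CPM with none. HIF is controlled largely at the protein level, which these counts do not measure.

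Genes of respiration and of other stress responses were compared in the same cells. Over all classes, none of 16 nuclear genes of the respiratory chain was called higher and Ndufa4 was called lower (568 CPM, 502 to 641, in cells with at least 3 members and 862 CPM in cells with none). Of 13 mitochondrial genes, mt-Co1 was called higher (7636 CPM in cells with at least 3 members and 5025 CPM in cells with none). The integrated stress response had 0 of 12 genes higher and Asns and Psat1 lower. The endoplasmic reticulum chaperones had Calr higher of 12, the p53 and cell death list Cdkn1a of 10 and the immediate early list Junb and Ier3 of 10. Of all genes tested between these cells, 4.51% were called higher and 5.13% lower.

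Several of these lists had more calls within progenitor-like cells, where 7.54% of all genes were called higher and 6.3% lower between cells with at least 3 members and cells with none. Of 10 endoplasmic reticulum chaperones, which fold secreted proteins, 5 were higher, with Hspa5 at 408 CPM in progenitor-like cells with at least 3 members and 182 CPM in those with none, and Calr at 709 CPM with at least 3 and 317 CPM with none. The immediate early genes Fos, Junb and Ier3 were higher (3 of 6 measured), as were Cdkn1a and Ccng1 of the p53 and cell death list (2 of 5) and Ddit3 of the integrated stress response (1 of 7). Of 12 genes of the mitochondrial genome, mt-Nd1, mt-Nd4, mt-Cytb, mt-Co3 and mt-Atp6 were lower (5), with mt-Nd4 at 1586 CPM with at least 3 members and 4020 CPM with none. Of the 16 nuclear genes, Ndufs1 was higher and Ndufa4 lower. Within astrocyte-like cells the calls on these lists were Shmt2 and Ier3 higher and Manf lower, where 2.39% of all genes were higher and 1.29% lower. Whether the classes differ in these lists was not tested.

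All 13 cell cycle genes were lower, where 5.13% of all genes were, with Top2a at 55.7 CPM (36.4 to 81.7) in cells with at least 3 members and 311 CPM in cells with none. Within astrocyte-like cells 0 of the 13 were, where 1.29% of genes were, with Ccnd2 at 407 CPM with at least 3 members and 301 CPM with none and Pcna at 54.5 CPM with at least 3 and 56.1 CPM with none. Within progenitor-like cells 3 of 11 measured were lower, where 6.3% of genes were: Ccnd2 (607 CPM with at least 3 members and 2180 CPM with none), Ccnd1 and Mcm6; Cdk1 was higher. Cycling-like cells made up 2.25% of the cells with at least 3 members and 17.0% of those with none.

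Of the receptors for VEGF and adrenomedullin, Flt1 was called higher, at 19.3 CPM (8.82 to 36.6; 9 UMIs) in cells with at least 3 members and 6.04 CPM in cells with none, as was Nrp1, at 30.01 CPM (16.4 to 50.3) with at least 3 members and 14.2 CPM with none. These were 2 of 6 measured receptor genes, where 4.51% of all genes were called higher. Within astrocyte-like cells 0 of 6 such genes were called, where 2.39% of all genes were higher. Within progenitor-like cells only 3 of the 8 listed were measured. All 3 (Nrp1, Nrp2 and Ramp1) were higher there, where 7.54% of all genes were. The adrenomedullin receptor gene Calcrl had 0 UMIs in cells with at least 3 members and 4 UMIs in cells with none. Markers of other cell types were summed in the same cells. The 12 astrocyte markers summed to 6105 CPM in cells with at least 3 members and 6179 CPM in cells with none, the 12 neuroblast markers to 630 CPM with at least 3 and 1558 CPM with none, and the 8 microglia markers to 2.14 CPM with at least 3 and 110 CPM with none. Of 6 pericyte or smooth muscle markers measured, Rgs5 and Acta2 were called higher (2), where 4.51% of all genes were. Abcc9 and Higd1b were at 0 in cells with at least 3 members. The 10 such markers summed to 362 CPM in cells with at least 3 members and 137 CPM in cells with none. Within progenitor-like cells that sum was 18.0 CPM in cells with at least 3 members and 21.96 CPM in cells with none, and within astrocyte-like cells it was 130 CPM with at least 3 members and 72.6 CPM with none; its part in the results was not tested. The 8 endothelial markers summed to 47.2 CPM in cells with at least 3 members and 22.8 CPM in cells with none. Of 5 measured, Pecam1 and Flt1 were called higher (2), where 4.51% of all genes were. Cldn5, Kdr, Cdh5, Ly6c1 and Esam were at 0 in the cells with at least 3 members.

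Several of the 10 genes have close relatives, which were measured in the same cells. Cox4i1, the usual subunit that Cox4i2 can replace, was at 3005 CPM (2921 to 3092) in cells holding at least 2 of the other 9 genes and 2638 CPM (2606 to 2671) in cells with none, a ratio of 1.14 beside 10.5 for Cox4i2. Ndufa4, the relative of Ndufa4l2, was at 793 CPM (751 to 837) with at least 2 others and 862 CPM (844 to 881) with none, a ratio of 0.920 beside 5.98. Bnip3l, also a mitophagy receptor and known HIF target, was at 421 CPM (387 to 458) with at least 2 others and 317 CPM (306 to 328) with none, a ratio of 1.33 beside 3.64 for Bnip3. Among the prolyl hydroxylases, Egln1 was called higher, at 46.2 CPM (35.9 to 58.6) with at least 2 others and 24.3 CPM (21.4 to 27.6) with none. Egln2 was not called, at 54.4 CPM (43.1 to 67.7) with at least 2 others and 68.1 CPM (63.1 to 73.3) with none.

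The kinase gene Pdk3 was called higher at 11.2 CPM (6.67 to 17.8; 18 UMIs) in cells holding at least 2 others and 6.30 CPM in cells with none, and Pdk2 and Pdk4 were not, with ratios of 1.47 and 0.893 beside 2.36 for Pdk1. Of the carbonic anhydrases, Car14 was called higher, at 55.8 CPM (45.1 to 68.3) with at least 2 others and 33.1 CPM with none, while Car2 and Car8 had ratios of 1.00 and 0.923 beside 12.6 for Car9. Vegfb was at 36.8 CPM (28.3 to 47.1) with at least 2 others and 31.9 CPM with none. Ndrg2, Ndrg3 and Ndrg4 were not called, with ratios of 1.17, 1.09 and 1.59 beside 5.69 for Ndrg1. Car12, Vegfc and Adm2 had too few UMIs to compare.

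The genes whose levels went most closely with the summed log level of the 10 over 13028 cells were ranked among 7222 genes with at least 500 UMIs, as a description. They were Aldoa (Pearson's r 0.28), Gpi1 (0.28), Fn1 (0.25), Bsg (0.25), Ldha (0.24), Tpi1 (0.23), Pfkl (0.20), Angptl2 (0.19), Gapdh (0.19), Eno1 (0.19), Sparc (0.19) and Mif (0.18). Of these 12, 7 were on the glycolysis list and Mif was on the list of hypoxia targets. The other 4 were on neither list: Fn1 encodes fibronectin, Sparc a matrix protein, Angptl2 a secreted angiopoietin-like protein and Bsg basigin, a partner of lactate transporters. Fn1 was at 194 CPM in cells with at least 2 members and 50.7 CPM in cells with none. In barcode sets 1 and 2 the r of Aldoa was 0.28 and 0.28, and within astrocyte-like cells it was 0.19. Counts per cell are sparse and the cells share library and depth, so these weak values only describe an order. The lowest value was that of the tubulin gene Tuba1a, at -0.18.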

How the data were processed

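Mouse neural stem cell cultures were profiled as single cells, with 1 library treated with 20HC and 1 with vehicle. The 10x Genomics 3′ kit, version 1, was used, per the labels' protocols; per the submitters' processing notes, reads were processed with Cell Ranger 2.1.1 on mm10. The authors deposited raw UMI counts per gene and barcode in 1 pooled matrix. The aligner's annotation and any equalising of depth are not given in the sources used here.

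Barcodes with under 500 genes (635) or over 10% mitochondrial UMIs (912) were left out (1407 in all), then doublets called by Scrublet within each barcode set (scanpy 1.11.5; 239 cells or 2.42% of set 1, 11 cells or 0.323% of set 2). The share called in set 2 was low, so doublets may remain there. Clustering used 2000 variable genes less 28 that belong to the 10 genes or to the HIF, hypoxia target and glycolysis lists (82 listed genes left out), 30 components, 15 neighbours and Leiden resolution 0.5 (leidenalg 0.10.2). A class name needed at least 3 markers at 2 times the level of other cells. CPM are UMIs per 1e+06 UMIs, with exact Poisson 95% intervals; shares carry exact Clopper-Pearson 95% intervals. Log2 ratios use CPM + 5. A call needed 1.5-fold over both barcode sets pooled and the same direction in each set. It also needed an interval that excludes the comparison, and 30 UMIs (10 in thinned comparisons). There was 1 sample, so no test was made. PCR is collapsed by UMIs, but intervals and limits from a count of 0 (3 counts) cover counting error only. The call rule was run on simulated counts for the comparison of cells with at least 3 members and cells with none. Of 50 genes changed by each fold, 98% of doublings and 78% of halvings were called, and 2.22% of 12459 unchanged genes. The changed genes came from the 5624 with most UMIs in cells with none, so detection in sparser genes was not measured. The simulation held no variation between cells and no choice of cells by the 10 genes, so 2.22% is not the error rate of the real comparison.

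All 10 genes are named; relatives and list genes are named by a written rule (most UMIs and largest or smallest ratio), and other names were chosen after their values were seen. The 10 genes, the lists and the alternatives were chosen with earlier results of these data known. Gene positions are from GENCODE M21 (GRCm38) and promoters from RefSeq (GRCm38.p6). Python 3.11.15, numpy 2.4.6, scipy 1.17.1, pandas 2.3.3, scikit-learn 1.9.0, igraph 0.11.9 and matplotlib 3.10.9 were used.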

Additional observations from a re-analysis of the deposited data

Results flagged for a closer look

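The 10 genes also had UMIs in barcodes outside the kept cells. In the 912 barcodes with over 10% mitochondrial UMIs (1568219 UMIs), the 10 genes summed to 445 CPM (95% Poisson interval 413 to 479), against 515 CPM in the kept cells. Car9 there was at 30.6 CPM (22.6 to 40.6; 48 UMIs), against 14.8 CPM (13.6 to 16.1) in the kept cells, with 24.5 CPM in barcode set 1 and 41.9 CPM in set 2. These barcodes belong to no comparison above and were picked out because a signal appeared in data that the comparisons did not use. In the 635 barcodes with under 500 genes, Car9 was at 105 CPM (81.0 to 135; 63 UMIs), while Vegfa had 0 UMIs (interval up to 6.17 CPM).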

How the results depend on the processing

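The count of genes higher in cells that hold others was 10 of 10 over all cells as reported and 9 in astrocyte-like cells. Where 1 other gene was enough to choose the cells, Pdk1 was less than 1.5 times as high as in cells with none. With exactly 1 other gene it was at 17.1 CPM (13.9 to 20.7), against 15.9 CPM with none. The log2 ratios of all 10 genes stayed positive under every alternative, the smallest being 0.29 for Pdk1. Summed over all kept cells, the 10 genes gave 514.5 CPM, and 536 CPM in barcode set 1 and 455 CPM in set 2 alone. Class counts moved most. With doublets kept, genes higher in progenitor-like cells numbered 0 (9 as reported), in astrocyte-like cells 7 (3) and over the classes counted 10 (16); that last total was 5 in barcode set 2 alone, 9 at resolution 1 and 6 with the hypoxia lists in the clustering. Resolution 1 gave 4 in progenitor-like cells, and resolution 0.3 gave 8 in astrocyte-like cells. With doublets kept, the log2 ratios in progenitor-like cells changed sign for Car9 (-0.33), Egln3 (-0.075) and Bnip3 (-0.0042), and for Adm in astrocyte-like cells (0.011). Adm in OPC-like cells changed sign to -0.025 with at most 5% mitochondrial UMIs and -0.57 with the hypoxia lists in the clustering, and Egln3 in ependymal-like cells to 0.64 at resolution 1. The share of cells with at least 3 members, 2.65%, was 2.16% in barcode set 2, 1.54%, 5.02% and 7.06% with 1000 UMIs, 2500 UMIs and no thinning, and 9.92% for at least 2 members. Other hypoxia targets, 26, numbered 17 in barcode set 2 and 12 in astrocyte-like cells, and cell cycle genes lower, 13, numbered 0 in astrocyte-like cells. The cause of these changes was not tested. Of log2 ratios of single genes, by class or between cells that hold others and cells with none, 549 kept their direction and size, 95 moved and 7 changed sign; of single-gene levels over all kept cells, 34 kept their size and 16 moved; of counts of genes per class, 106 stayed within 1.5 times and 30 moved. Among the alternatives, 2 were chosen after seeing the data: not counting Fam162a among the other members, and leaving astrocyte-like cells out of the comparison cells. No paired analysis was possible because barcodes are not tied to the libraries and each condition has 1 library.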
